A study of Mus musculus with 22 samples.

Results

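The 51 genes described here build the machinery that copies DNA and supplies its nucleotides. They were chosen by name from a list of replication and nucleotide-supply genes, and all 51 were found among the 46297 rows of a mouse RNA-seq table. All 51 also passed the filter on low values, so every count below is over 51 genes unless a smaller set is named. Before a cell divides, the origin recognition complex, Cdc6 and Cdt1 load the MCM helicase onto DNA, and Cdc45 and the GINS complex then switch it on. Primase and the DNA polymerases copy the strands behind it, held in place by the PCNA clamp, while ribonucleotide reductase, thymidylate synthase and thymidine kinase supply deoxynucleotides. Activated CD8 T cells divide rapidly, and many of these genes are known targets of E2F transcription factors, so their RNA is a common readout of cycling cells.

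The libraries were made from P14 CD8 T cells of C57BL/6 mice aged 6 to 12 weeks; P14 cells carry a single T-cell receptor that recognises a viral peptide. Cells were wild-type or VHL-deficient, that is, lacking the protein that marks hypoxia-inducible factors for degradation. The 10 groups cover both genotypes in tumor at day 11 (n = 3 libraries per genotype) and, at day 7, in tumor, in spleen and in the tumor-derived subsets labelled Trm and nonTrm (n = 2 libraries per genotype each). Each replicate pooled 5 mice, per the series' design text, so the spread between libraries is between pools. The sources used here do not name the tumor, the event that starts the day count, the markers that define Trm, the Vhl allele or any Cre driver. Sample titles end in a letter and a number, read here as plate row and column, though no label names a plate. On that reading, Trm and nonTrm libraries lay in column 1, day 7 tumor and spleen in column 2 and day 11 in column 3. The day then cannot be told apart from the column, while each genotype comparison lies within 1 column.

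Total reads ran from 3375558 to 10211060 per library. Vhl itself had scaled counts of 0 to 21.9 in the 11 VHL-deficient libraries and 111 to 211 in the 11 wild-type ones. The 7 CD8 T-cell markers summed to 23305 to 69180 in every library, and erythroid markers to at most 2.23. The CD8 sum was higher in VHL-deficient cells without overlap in day 11 tumor (32037 to 35673 against 27269 to 29733). It was also higher in day 7 tumor (33653 to 34052 against 23305 to 33613) and spleen (37695 to 45495 against 25608 to 29195). In spleen 4 fibroblast and endothelium markers summed to 217 to 281 against 421 to 430, and melanoma markers to 88.6 to 98.3 against 66.8 to 68.1. Reads from the mitochondrial genome made up 2.89% to 5.57% in VHL-deficient and 6.07% to 12.1% in wild-type libraries, and 6 of 7 mitochondrial genes tested fell both at day 11 and in Trm. The sum of 5 B-cell markers was lower in VHL-deficient cells without overlap in all 5 settings: 76.1 to 135 against 311 to 591 in day 11 tumor, 195 to 197 against 532 to 1018 in day 7 tumor, 570 to 619 against 1174 to 1222 in spleen, 193 to 196 against 397 to 497 in Trm and 127 to 297 against 469 to 881 in nonTrm. Ighm, 1 of the 2 tested, fell in each, while Ms4a1 was at 0 in wild-type day 11 tumor and Cd79a in VHL-deficient Trm. The sum of 6 dendritic-cell markers was 487 to 616 against 265 to 589 in day 11 tumor and 483 to 780 against 332 to 350 in Trm; of the 5 tested, Xcr1 rose in both (1.67 and 2.48), H2-Eb1 fell in both (-2.75 and -3.25) and H2-Aa fell at day 11 (-3.46). Xcr1 (1.51) and the CD4 T-cell marker Cd4 (3.72) rose in day 7 tumor, and the nuclear long RNA Neat1 rose in Trm (2.02). In day 11 tumor the sum of 7 macrophage and monocyte markers was 46.9 to 51.1 against 73.5 to 116, and that of 6 melanoma markers 46.5 to 68.5 against 27.4 to 42.4, with none of 3 tested called in either list; the melanoma sum was 52.8 to 62.8 against 33.8 to 50.4 in Trm. The part of any of these in the differences below was not tested. Library 2 of VHL-deficient nonTrm stood apart, with 45.7% of its reads from rRNA genes against 26.9% in library 1. Its scaled count of the nuclear long RNA Malat1 was 34358 against 8805. Library 1 of VHL-deficient spleen also had a high rRNA share, 42.3%, and the fewest total reads, 3375558. These are bulk samples, in which fewer dividing cells and less RNA of these genes per cell cannot be told apart.

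The promoters of the 51 genes are shown for 3 members because an E2F site core was more frequent among these genes than among all promoters. The search covered the 250 bases before each start in RefSeq promoters (GRCm38.p6), on both strands, for the words TTTCCCGC, TTTGGCGC, TTTCGCGC and TTTGCCGC; overlapping words were counted separately. Of the 51 genes, 42 had a promoter entry (50 promoters), and 10 of the 42 held a word: Mcm5, Mcm6, Mcm7, Orc1, Cdc6, Gins3, Pola1, Rfc3, Dnmt1 and Uhrf1. That is 23.8% of these genes against 2.16% of the 27025 genes in the table (20% of 50 promoters against 1.86% of 32851). Mcm4, Rfc2, Prim2, Pole, Gins1, Gins2, Gins4, Ccne2 and Gmnn had no entry. The 3 windows printed are those that hold a word and lie wholly outside the annotated gene, with the words in capitals; the first capital run in Mcm6 and the run in Mcm5 each hold 2 overlapping words.
Mcm5 (chr8:75109259-75109508, plus strand): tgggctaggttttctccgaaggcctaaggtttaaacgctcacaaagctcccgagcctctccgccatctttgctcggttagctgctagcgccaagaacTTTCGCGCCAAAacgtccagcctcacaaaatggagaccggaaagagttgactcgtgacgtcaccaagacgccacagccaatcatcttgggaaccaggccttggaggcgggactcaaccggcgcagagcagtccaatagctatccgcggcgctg
Mcm6 (chr1:128359706-128359955, minus strand): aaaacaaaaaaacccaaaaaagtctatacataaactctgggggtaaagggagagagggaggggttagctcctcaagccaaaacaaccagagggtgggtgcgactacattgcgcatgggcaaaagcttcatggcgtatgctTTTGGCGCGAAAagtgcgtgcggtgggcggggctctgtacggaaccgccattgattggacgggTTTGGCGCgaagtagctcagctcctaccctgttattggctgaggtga
Pola1 (chrX:93632156-93632405, minus strand): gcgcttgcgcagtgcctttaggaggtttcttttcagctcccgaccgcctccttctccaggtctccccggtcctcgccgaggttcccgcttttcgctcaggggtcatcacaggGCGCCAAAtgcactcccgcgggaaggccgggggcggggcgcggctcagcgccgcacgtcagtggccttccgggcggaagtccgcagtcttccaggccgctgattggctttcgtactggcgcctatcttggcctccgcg
A hypoxia response core (ACGTG or GCGTG) was present in 26 of the 42 genes (61.9%) against 41.5% of all genes, and a CCAAT box (CCAAT) in 25 (59.5%) against 37.5%. A CHR element (TTTGAA or TTCGAA) was present in 8 (19.0%) against 19.6%. The median GC content of the members' windows was 61.2% and that of all windows 52.4%. A match here describes letters only and is no measure of binding.

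The deposited values, less an offset of 1, are read counts divided by a size factor, called scaled counts here. Summed over the 51 genes, their group mean was highest in wild-type Trm and day 7 tumor and lowest in VHL-deficient spleen. Wild-type Trm libraries summed to 38758 and 49984, wild-type day 7 tumor to 38782 and 44920, and wild-type day 11 tumor to 31448, 34085 and 37426. The VHL-deficient libraries summed to 22041 and 12494 in Trm, 30094 and 29375 in day 7 tumor, and 16139, 12999.9 and 17814 in day 11 tumor. In spleen the sums were 9965 and 10368 in wild-type and 7863 and 8314 in VHL-deficient cells. In each of those 4 settings the genotypes did not overlap. In nonTrm they overlapped, with 21853 and 10918 in wild-type against 13334 and 7502. Of the 51 genes, 37 had their highest group mean in wild-type Trm and 12 in wild-type day 7 tumor. Per kilobase of exon, the mean level over all libraries ran from 11.6 for E2f1 and 12.0 for Mcm10 to 449 for Rrm2 and 561 for Mcm6.

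**Figure D1:**
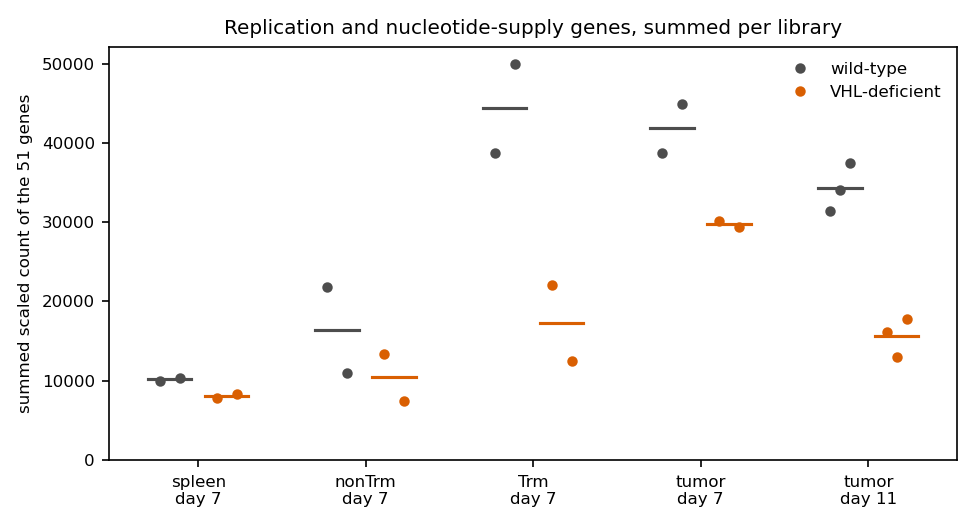
Summed scaled count of the 51 genes (vertical axis) in each library, by tissue, subset and day. Points are libraries, bars group means, grey wild-type and orange VHL-deficient; wild-type Trm and tumor libraries lie between 31448 and 49984, and VHL-deficient day 11 libraries between 12999.9 and 17814.

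**Figure D2:**
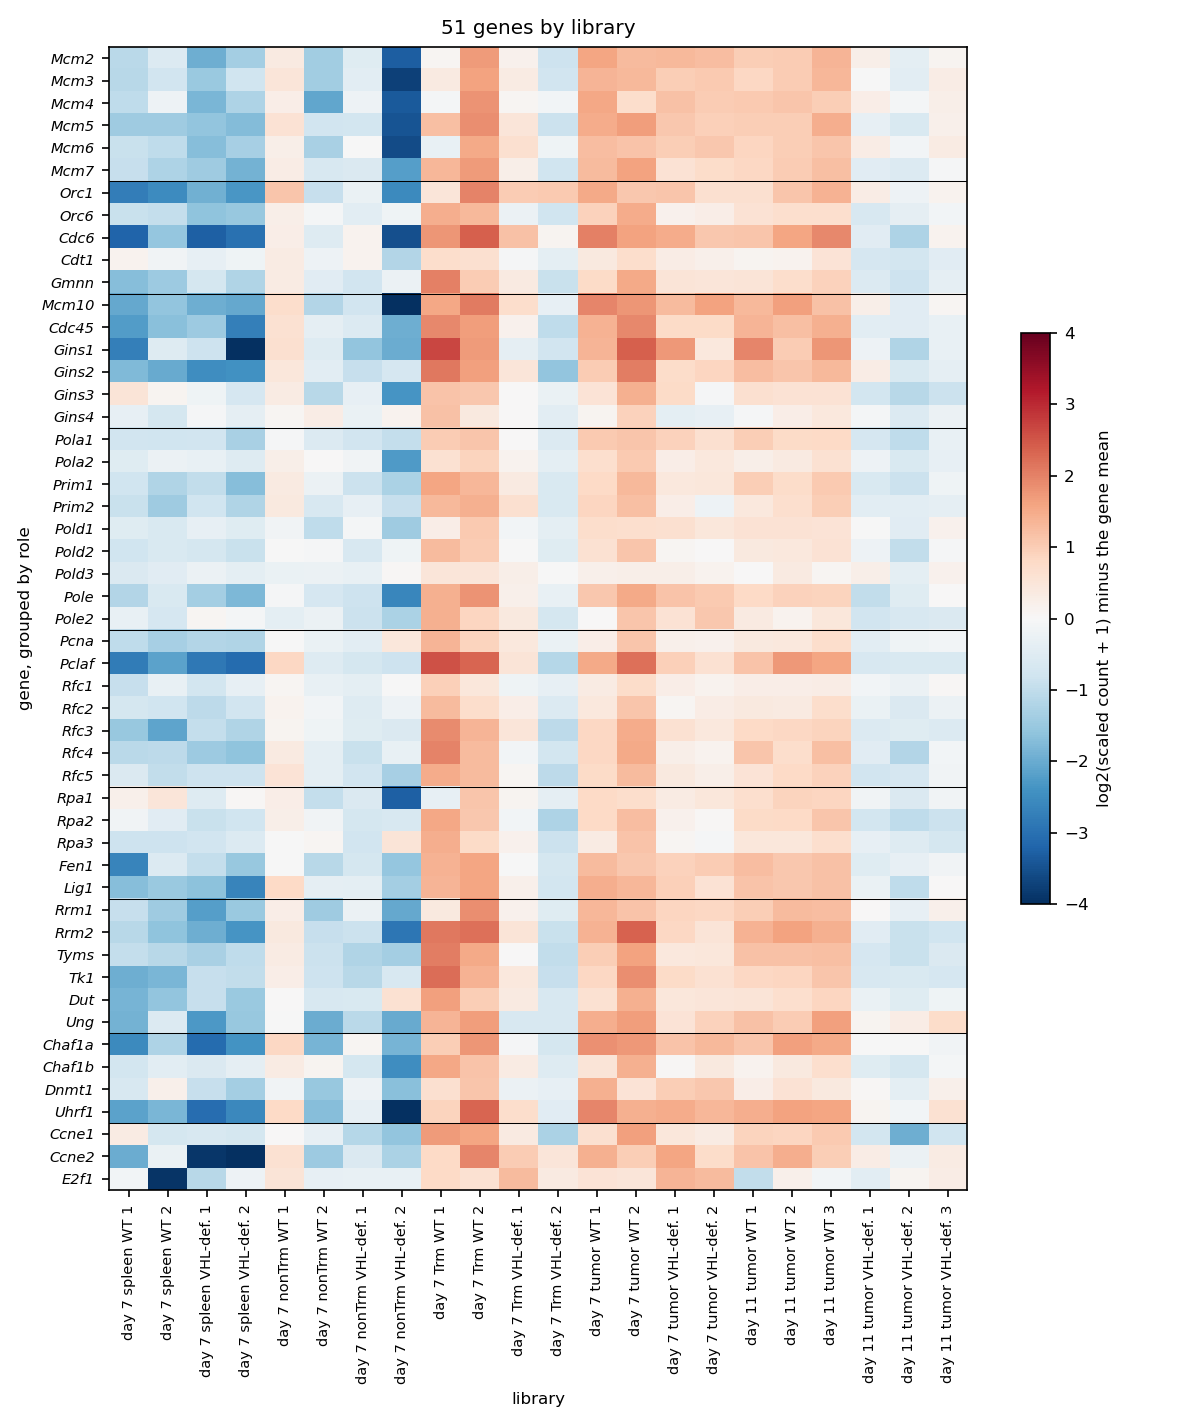
The 51 genes (rows, grouped by role) in the 22 libraries (columns), as log2(scaled count + 1) minus each gene's mean over libraries; colours saturate at 4 units. Tumor and Trm libraries of wild-type cells are mostly red, spleen libraries mostly blue, and VHL-deficient nonTrm library 2 is darkest blue for the MCM genes.

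In day 11 tumor, 24 of the 51 genes fell in VHL-deficient cells and none rose, and for 49 of the 51 every VHL-deficient library was below every wild-type one, as it was for 17.9% of all genes tested. Each gene was tested on log2(scaled count + 1) with limma, with Benjamini-Hochberg adjustment over the 14327 genes tested, and called at an adjusted p below 0.05. Among all genes tested, 2.39% were called lower in this comparison. The median log2 fold change was -1.19 for the 51 genes and 0.07 for all genes. Fold changes are on this log scale throughout, which understates the change of genes with low counts, and ± gives the standard error. All 51 symbols match 1 protein-coding gene each in the mm10 annotation; Rpa2 lies at chr4:132768332-132778752 (plus strand), Tyms at chr5:30058202-30073617 (minus), Rrm2 at chr12:24708241-24714146 (plus), Pclaf at chr9:65890237-65903266 (plus) and Orc6 at chr8:85299632-85308278 (plus).

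Origins are licensed by Orc1, Orc6, Cdc6 and Cdt1, and geminin (Gmnn) holds back Cdt1 after S phase begins. Orc6 had scaled counts of 110.3, 135 and 162 in VHL-deficient and 259, 279.8 and 279 in wild-type day 11 libraries. The groups did not overlap, and the log2 fold change was -1.02 ± 0.23 (SE), adjusted p = 0.00867. Gmnn had 125, 105 and 143 against 264, 303 and 348 (-1.29 ± 0.33 (SE), adjusted p = 0.0211). Cdt1 also fell (-0.88 ± 0.26 (SE), adjusted p = 0.0488). Cdc6 had a larger difference, -2.07, but a larger error as well, and with Orc1 it did not pass the test (adjusted p = 0.0524 and 0.295).

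The MCM2-7 ring is the helicase that unwinds DNA, and Mcm7 was its only member called. Its scaled counts were 470.3, 438 and 618 in VHL-deficient and 1132, 1301 and 1467 in wild-type libraries (-1.36 ± 0.34 (SE), adjusted p = 0.0177). Every VHL-deficient library was below every wild-type one. Mcm5 did the same, at 819.8, 676 and 1179 against 2049.6, 2037 and 2806, with -1.39 ± 0.48 (SE), adjusted p = 0.0857. Mcm2, Mcm3, Mcm4 and Mcm6 did not overlap between genotypes either, with log2 differences of -1.13, -1.11, -0.90 and -0.81. The error of the MCM genes, 0.34 to 0.61, is estimated over all 10 groups, and in Trm and nonTrm the replicates of several MCM genes lay far apart, as given below.

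Cdc45 and the GINS complex join the helicase to activate it. Cdc45 had 158, 157 and 172 in VHL-deficient and 545, 493 and 569.8 in wild-type day 11 libraries (-1.72 ± 0.38 (SE), adjusted p = 0.00743). Gins2 had 97.5, 51.5 and 61.0 against 186, 173 and 195 (-1.44 ± 0.41 (SE), adjusted p = 0.0384), and Gins3 fell too (-1.50 ± 0.44 (SE), adjusted p = 0.0427). Mcm10, which helps firing, Gins1 and Gins4 were not called, at -1.42, -2.15 and -0.52.

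Primase (Prim1, Prim2) and polymerase alpha (Pola1, Pola2) start each strand; polymerases delta and epsilon extend it. Pola1 had 154, 119 and 201 in VHL-deficient and 487, 416 and 422 in wild-type libraries (-1.51 ± 0.23 (SE), adjusted p = 0.000357). Prim1 had 135, 111 and 183 against 405, 340.1 and 424 (-1.46 ± 0.28 (SE), adjusted p = 0.00296). Neither gene overlapped between genotypes. Prim2, Pold2 and Pole fell as well, by 1.08, 0.88 and 1.34 on the log2 scale. Pola2, Pold1, Pole2 and Pold3 were not called, and Pold3, a delta subunit, overlapped between the genotypes (-0.15).

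The clamp PCNA and its loader, the RFC complex, tie the polymerases to DNA, and Pclaf binds PCNA. Pclaf had 107, 109 and 109.8 in VHL-deficient and 370.2, 557 and 504 in wild-type libraries (-2.10 ± 0.37 (SE), adjusted p = 0.0011). The 3 VHL-deficient libraries lay close together, below all wild-type ones. Rfc4 had 138, 83.8 and 176 against 414, 307 and 437 (-1.58 ± 0.31 (SE), adjusted p = 0.00296). Rfc2, Rfc3 and Rfc5 fell too, by 0.84, 1.36 and 1.28. Pcna (-0.76, adjusted p = 0.0784) and the large loader subunit Rfc1 (-0.37, adjusted p = 0.346) were not called.

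Single-stranded DNA is covered by RPA, and Fen1 and Lig1 finish the fragments of the lagging strand. Rpa2, the middle RPA subunit, had the smallest adjusted p of the 51 genes. Its scaled counts were 311, 256 and 284 in VHL-deficient and 884, 905 and 1105 in wild-type libraries (-1.76 ± 0.25 (SE), adjusted p = 0.000106). Lig1, the ligase, had 192, 114 and 236 against 512, 488 and 527 (-1.55 ± 0.35 (SE), adjusted p = 0.00878). Fen1 fell by 1.47. Rpa1 and Rpa3, of the same complex as Rpa2, were not called (-1.10 and -1.05).

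Of the nucleotide-supply genes, the 2 with the smallest adjusted p were Tyms, which makes thymidylate, and Rrm2, the small subunit of ribonucleotide reductase. Tyms had 154, 133 and 166 in VHL-deficient and 558, 559 and 572 in wild-type libraries (-1.90 ± 0.29 (SE), adjusted p = 0.000299). Rrm2 had 555, 412 and 435 against 1999, 2331 and 2048, the largest fold change of the 51 genes (-2.19 ± 0.42 (SE), adjusted p = 0.00282). Tk1, which salvages thymidine, fell by 1.58. Rrm1, the large reductase subunit, Dut, which removes dUTP, and Ung, which removes uracil from DNA, did not overlap between genotypes but were not called (-1.19, -0.97 and -0.89).

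None of the 4 genes that copy chromatin and DNA methylation passed the test. Chaf1a and Chaf1b are subunits of the chromatin assembly factor that loads histones behind the fork. Chaf1a had 101, 101 and 93.8 in VHL-deficient and 221, 321 and 297 in wild-type libraries (-1.48 ± 0.53 (SE), adjusted p = 0.102). Chaf1b had 154, 135 and 207 against 239, 287 and 348 (-0.82 ± 0.36 (SE), adjusted p = 0.181). Uhrf1 and Dnmt1, which maintain DNA methylation, had differences of -1.34 and -0.47. The groups did not overlap for any of the 4.

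Cyclin E drives entry into S phase. Ccne1 had 135, 57.6 and 128 in VHL-deficient and 416, 409.8 and 460.0 in wild-type libraries (-2.09 ± 0.38 (SE), adjusted p = 0.00157). Ccne2 had 58.1, 40.0 and 59.5 against 104, 131 and 93.4 (-1.05 ± 0.49 (SE), adjusted p = 0.216). E2f1, the activator of many of these genes, was the only one of the 51 with a positive difference at day 11, 0.29. Its low counts overlapped: 22.1, 32.3 and 37.4 against 14.6, 34.9 and 27.7.

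**Figure D3:**
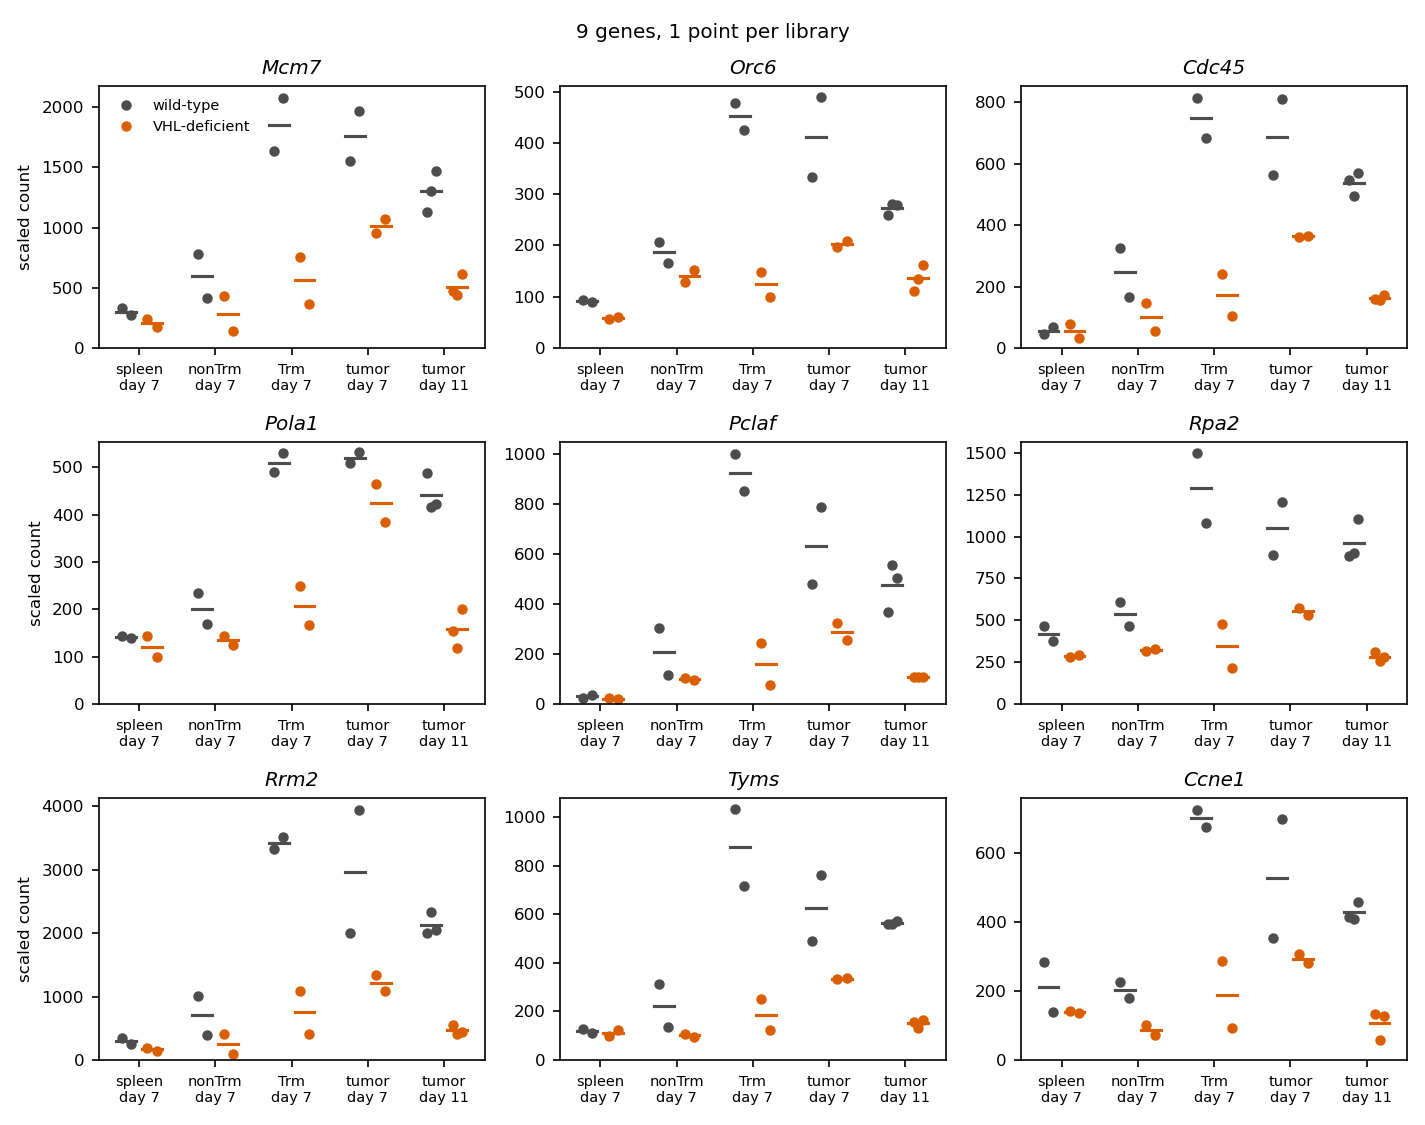
Scaled counts of 9 of the 51 genes (vertical axes) in each library, by tissue, subset and day; points are libraries and bars group means. At day 11 and in Trm every VHL-deficient point (orange) lies below every wild-type point (grey) for these 9 genes.

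The count at day 11 depended on which libraries entered. It was 12 without VHL-deficient library 2 (0.796% of all genes fell), 13 without VHL-deficient library 1 (1.18%), 13 without wild-type library 3 (1.01%) and 14 without wild-type library 2 (1.4%), whose neutrophil marker sum was 728. It was 46 when only the 6 day 11 libraries were fitted, where 8.84% of all genes fell. Called at all 29 other settings were 11 genes: Cdc45, Pola1, Prim1, Pclaf, Rfc3, Rfc4, Rpa2, Rrm2, Tyms, Tk1 and Ccne1.

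Related genes outside the 51 were counted from lists chosen with these data already known. Of 26 mitosis genes 22 fell at day 11, where 2.39% of all genes tested fell. The mitosis genes were led by Mki67 (-1.84), Ndc80 (-2.00), Cdca8 (-2.46) and Cenpe (-2.04). Of 32 other fork and licensing genes 8 fell, led by Rnaseh2b (-1.33), Asf1b (-1.98), Ticrr (-1.90) and Atad5 (-1.69). Dck and Umps were among the other deoxynucleotide and pyrimidine genes that fell, and of 14 purine synthesis genes Prps1 fell. Of 25 tested G1/S control genes Skp2, E2f2 and Cdkn2c fell and Cdkn1b, an inhibitor of cyclin E kinase, rose (0.98). Exo1 and Brca2 were among the checkpoint and repair genes that fell, and Atr, the kinase that senses stalled forks, rose (1.45). The medians of the mitosis, fork and licensing, purine and G1/S lists were -2.06, -0.77, -0.42 and -0.45, against 0.07 for all genes. In Trm 20 of the 26 mitosis genes and 10 of the 32 other fork and licensing genes fell, where 5.03% of all genes tested fell.

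In Trm, 29 of the 51 genes fell in VHL-deficient cells and none rose, where 5.03% of all genes tested fell. The median log2 fold change was -1.46, against 0.09 for all genes. Orc6 had 149 and 99.4 in VHL-deficient and 477 and 426 in wild-type Trm libraries (-1.88 ± 0.28 (SE), adjusted p = 0.000252). Rpa2 had 480.5 and 217 against 1501 and 1084 (-1.98 ± 0.30 (SE), adjusted p = 0.000314), and Tyms had 250.2 and 123 against 1031 and 717 (-2.28 ± 0.36 (SE), adjusted p = 0.00037). All 3 genes had every VHL-deficient library below every wild-type one, as did 44 of the 51 and 25% of all genes tested.

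By role, all 7 clamp and loader genes fell in Trm, including Pcna (-1.06) and Rfc1 (-0.95), which were not called at day 11. Of the nucleotide-supply genes 5 of 6 fell, from Dut (-1.46) to Rrm2 (-2.34), Rrm1 being the exception. Of the rest, 6 of 9 primase and polymerase genes, 4 of 5 single-strand and Okazaki genes, 2 of 5 licensing genes and 2 of 6 activation genes fell. Only Mcm7 (-1.80) of the MCM ring, Chaf1b (-1.43) of the chromatin genes and Ccne1 (-2.09) of the S-phase entry genes passed.

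**Figure D4:**
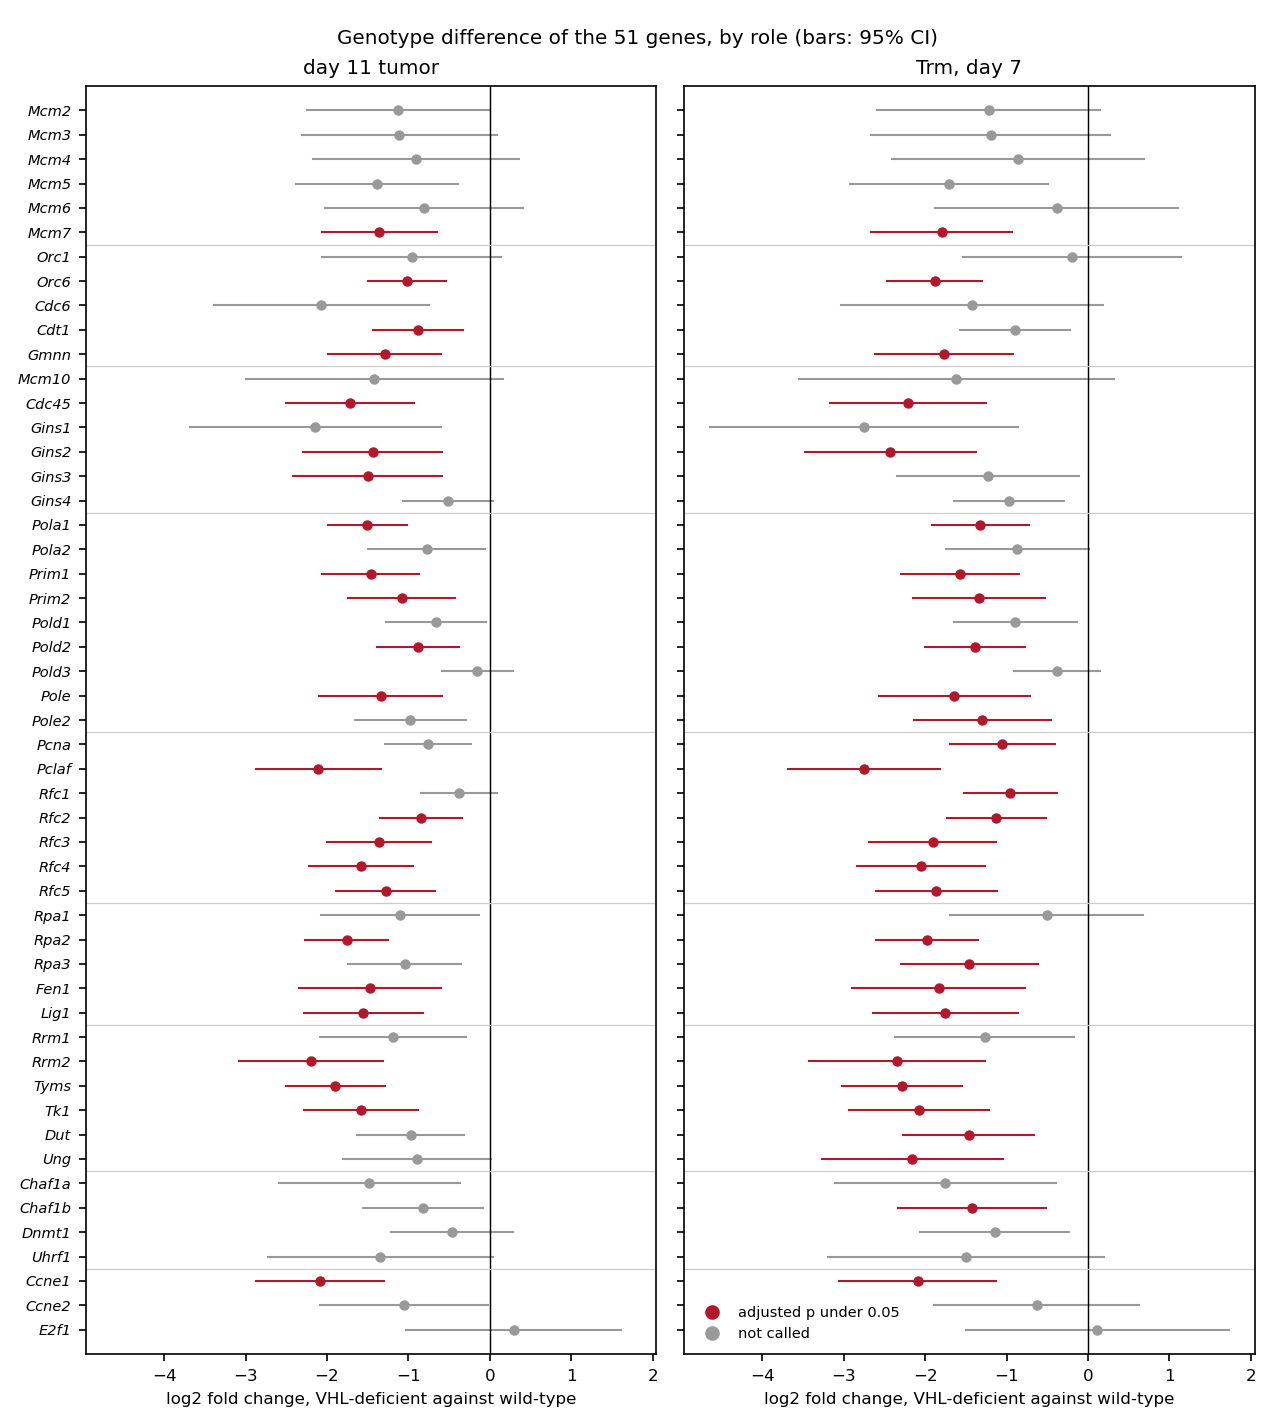
Log2 fold change of VHL-deficient against wild-type cells (horizontal axes) for the 51 genes, ordered by role with grey lines between roles, in day 11 tumor (left) and Trm (right). Bars are 95% confidence intervals, red marks genes called at an adjusted p below 0.05 (24 left, 29 right), and all points but E2f1 lie below 0.

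Of the 24 genes called at day 11, 22 (91.7%) were also called in Trm, which is 75.9% of the 29 called there. Cdt1 and Gins3 passed at day 11 and not in Trm, and Chaf1b, Dut, Pcna, Pole2, Rfc1, Rpa3 and Ung in Trm and not at day 11; the difference between the settings was not tested. These 2 comparisons share no library, though they share the estimate of spread.

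The count in Trm also depended on single libraries. It was 4 genes without VHL-deficient library 2 (Orc6, Pclaf, Rpa2 and Tyms, which were called in all fits) and 8 without wild-type library 1, where 0.482% and 0.949% of all genes fell; with 1 library left in a group, that library was assumed to vary like the others. The wild-type Trm libraries differed by gene: Mcm2 had 676 and 2122, Mcm4 699 and 2567 and Gmnn 751 and 373. Library 2 over library 1 ran from 0.496 (Gmnn) to 3.67 (Mcm4), with a Spearman correlation with exon length of 0.48 over the 51 genes, a description over genes that share libraries. In VHL-deficient Trm, library 2 was below library 1 for 49 of the 51 genes, with a median ratio of 0.553. There the ratio had a Spearman correlation of 0.088 with exon length.

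In day 7 tumor no member was called, where 1.91% of all genes tested were called in either direction. At an unadjusted p below 0.05 limma found 9 of the 51 and 13.6% of all genes, and voom called 0 members; the count was 1 without either VHL-deficient nonTrm library. The median log2 difference was -0.56, and for 39 genes every VHL-deficient library was below every wild-type one, as for 23.6% of all genes. E2f1 went the other way without being called, at 79.8 and 73.3 in VHL-deficient against 44.7 and 42.3 in wild-type libraries (0.80). The smallest adjusted p, 0.0823, belonged to Orc6, at 197 and 209.6 against 333 and 489. The difference of the genotype effect between day 11 and day 7 tumor was tested directly. No member passed, and 0% of all genes did (0 members by voom; 5 members and 1.87% of all genes at an unadjusted p below 0.05), so the data do not show that the genotype effect differed between the days. In that test 50 of the 51 point estimates were below 0.

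In spleen 1 member fell, Ccne2, where 0.733% of all genes tested fell. Ccne2 had 2.23 and 1.64 in VHL-deficient and 11.1 and 38.8 in wild-type libraries (-2.91 ± 0.61 (SE), adjusted p = 0.00718). The VHL-deficient libraries held 3 reads in all and the wild-type ones 45, a ratio of 0.0669 with an exact 95% interval of 0.0133 to 0.209 that covers counting error only. The call was lost with a pseudocount of 5 (-1.94, adjusted p = 0.0562). It was also lost without VHL-deficient library 2 or wild-type library 2 of spleen, and 2 members were called without wild-type library 1. Library 1 of VHL-deficient spleen held 1 of those 3 reads and had 42.3% of its reads from rRNA genes. The part of this in the result was not tested. The members' median was -0.25. Every VHL-deficient library was below every wild-type one for 19 members and 19.8% of all genes, and above for 8 members and 23.7% of all genes; the other 24 members overlapped. The interaction of genotype with tissue, tumor against spleen, passed for no member (6 at an unadjusted p below 0.05, 0 by voom), where 0.0698% of all genes passed and 9.61% had an unadjusted p below 0.05.

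In nonTrm 1 member fell, Chaf1b, where 0.67% of all genes tested fell. Chaf1b had 133 and 38.2 in VHL-deficient and 275 and 233 in wild-type libraries (-1.81 ± 0.44 (SE), adjusted p = 0.0291). The call was lost without VHL-deficient library 2 (-0.92, adjusted p = 0.257) and without either wild-type library (adjusted p = 0.179 and 0.115). For 19 members, and 14.4% of all genes, every VHL-deficient library was below every wild-type one. Without VHL-deficient library 1, 21 members fell, as did 8.68% of all genes. The 2 VHL-deficient libraries differed in opposite ways by gene: Mcm6 had 1979 and 169, Mcm5 617 and 92.8 and Rpa1 506 and 76.4, but Pcna had 635 and 1157, Dut 368 and 857 and Rpa3 62.2 and 153. Library 2 was lower for 37 of the 51 genes, and its ratio to library 1 had a Spearman correlation of -0.44 with exon length. That library is the one with the highest rRNA share, and what part this has in its values was not tested.

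Tumor against spleen at day 7 gave the highest counts. In wild-type cells 45 of the 51 genes rose in tumor and none fell, where 13.2% of all genes tested rose; in VHL-deficient cells it was 36 and none, where 9.98% rose. The medians were 2.23 and 1.79. All 51 genes in wild-type cells, and 50 in VHL-deficient cells, had every tumor library above every spleen library, against 33.1% and 33.8% of all genes. Marker sums moved with tissue too: B-cell markers summed to 532 to 1018 in wild-type tumor against 1174 to 1222 in spleen and to 195 to 197 against 570 to 619 in VHL-deficient cells, and dendritic-cell markers to 190 to 372 against 935 to 1291 and 358 to 442 against 872 to 1167. Cd79b and Itgax fell in tumor in both genotypes, Cd68 and Foxp3 rose and Neat1 and Pecam1 fell in wild-type cells, and Pmel fell in VHL-deficient cells; their part in the result was not tested. The 2 comparisons share no library, though they share the estimate of spread. Called in both were 34 genes, which is 75.6% of the wild-type and 94.4% of the VHL-deficient list. With 45 of the 51 on the wild-type list, a large overlap follows from the list sizes alone.

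Pclaf, the PCNA-binding factor, had the smallest adjusted p in wild-type cells, with 23.7 and 37.7 in spleen and 479.9 and 788 in tumor (4.32 ± 0.45 (SE), adjusted p = 9.88e-07). Rfc3, a loader subunit, had 57.1 and 37.7 against 291 and 463 (2.96 ± 0.37 (SE), adjusted p = 1.18e-05). Cdc45 had 44.5 and 67.1 against 562 and 809 (3.60 ± 0.46 (SE), adjusted p = 1.3e-05). In each, tumor was far above spleen. In VHL-deficient cells Ccne2 led, with 2.23 and 1.64 in spleen and 142 and 79.6 in tumor (5.20 ± 0.61 (SE), adjusted p = 5.05e-06), and the 3 spleen reads against 206 in tumor give a ratio of 57.0 with an exact counting interval of 19.2 to 279. Pclaf had 22.3 and 18.9 against 325 and 255 (3.75 ± 0.45 (SE), adjusted p = 7.36e-06), and Lig1 had 73.8 and 36.1 against 454 and 346 (2.92 ± 0.43 (SE), adjusted p = 8.35e-05).

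The genes not called in wild-type cells were Mcm4 (1.73), Cdt1 (0.54), Gins3 (0.66), Pole2 (1.05), Rpa1 (0.40) and Dnmt1 (1.20). Rpa1, the large RPA subunit, was the only one of the 51 called in no comparison; it had 859 and 1045 in wild-type spleen and 1293 and 1216 in wild-type tumor. Among VHL-deficient cells, Cdt1, Gins3, Pole2 and Rpa1 again missed the threshold, and Gins4 had a difference of -0.16 with overlapping libraries. Mcm4 and Dnmt1 passed in VHL-deficient cells and missed the threshold in wild-type cells. By role, the wild-type and VHL-deficient counts were 5 and 6 of 6 for the MCM ring, 4 and 4 of 5 for licensing, 5 and 4 of 6 for activation, 8 and 3 of 9 for primase and polymerases and 7 and 6 of 7 for the clamp and loader. They were 4 and 3 of 5 for single-strand and Okazaki genes, 6 and 6 of 6 for nucleotide supply, 3 and 3 of 4 for chromatin and 3 and 1 of 3 for S-phase entry. No member's difference between the genotypes passed, as given above for the interaction with tissue.

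Of the tumor subsets, Trm exceeded nonTrm in wild-type cells for 6 members, Pola1, Pclaf, Rrm2, Tyms, Tk1 and Ung, where 0.202% of all genes tested were called higher. Tyms had 311 and 136 in nonTrm and 1031 and 717 in Trm libraries (2.06 ± 0.36 (SE), adjusted p = 0.0191). Pclaf had 302 and 117 against 1000.0 and 852 (2.29 ± 0.45 (SE), adjusted p = 0.0315), and Tk1 257 and 120.4 against 1022 and 569.8 (2.11 ± 0.41 (SE), adjusted p = 0.0315). For 45 of the 51 genes, and 21.5% of all genes, both Trm libraries were above both nonTrm libraries. The wild-type nonTrm libraries differed from each other, with library 2 below library 1 for 47 of the 51 genes and a median ratio of 0.532. That ratio had a Spearman correlation of -0.30 with exon length. The count of 6 became 0 without either wild-type Trm library or without wild-type nonTrm library 2, 16 without wild-type nonTrm library 1 (0.824% of all genes), and 26 without either VHL-deficient nonTrm library (0.998%). It was 1 without VHL-deficient day 11 library 1 or wild-type day 11 library 2, and 3 without wild-type day 11 library 1 or 3. The share of all genes called at these day 11 settings is not given.

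In VHL-deficient cells no member was called between Trm and nonTrm, where 0.00698% of all genes were (20 members and 8.77% of all genes at an unadjusted p below 0.05, 0 members by voom), and the members' median was 0.79. Without VHL-deficient nonTrm library 1, 21 members and 11.3% of all genes were called higher in Trm. The interaction of genotype with subset passed for no member, where 0% of all genes passed (15 members and 8.07% of all genes at an unadjusted p below 0.05, 0 members by voom). It passed for 9 members and 10.4% of all genes without VHL-deficient nonTrm library 1, which leaves the library that stands apart as the only one of its group.

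Between days, no member was called in tumor, where 0% of all genes were called in either genotype. In wild-type cells the median was -0.28 and 1 member had an unadjusted p below 0.05, as did 3.38% of all genes (0 members by voom). In VHL-deficient cells the median was -1.02, and 28 members had an unadjusted p below 0.05, as did 4.42% of all genes (0 members by voom). For 48 of the 51 genes, and 16.8% of all genes, every day 11 library was below every day 7 library. With only those libraries fitted, 18 members and 0.384% of all genes were called lower at day 11, among them Tyms, Rrm2, Pclaf and Mcm2 to Mcm7.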

How the data were processed

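RNA from sorted P14 CD8 T cells was measured in 22 libraries of 10 groups, taken from the sample descriptions. Per the submitters' processing notes, STAR, featureCounts and DESeq were used with genome build mm10; versions and settings were not stated. The deposited values are a normalized signal: read count divided by a size factor, plus 1. The offset of 1 was removed, and whole reads were recovered for 100% of values within 0.01 reads. These scaled counts were log2-transformed with a pseudocount of 1.

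The 14327 genes that reached 10 scaled counts in 2 or more libraries entered limma 3.58.1 (R 4.3.3). A single model held a mean for each of the 10 groups, leaving 12 residual degrees of freedom, with empirical Bayes moderation along the mean-variance trend. Tests were two-sided, with Benjamini-Hochberg adjustment at 0.05. The fit was tested on simulated data. Positions and exon lengths are from GENCODE on mm10. The planned edgeR count test was not run, because a check of units did not accept the deposited values with their offset as counts. Whole reads were recovered all the same, and voom on them was added after the units were seen.

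The 51 members and all lists were chosen with earlier results of these data known. Values in every library are given for the 2 members per role with the smallest adjusted p at day 11 and up to 3 called members in each other comparison, plus members called in no comparison; other genes shown with values were chosen after their values were seen. Up to 4 called genes are named per related list. Some genes of those lists are not reported here. Total reads of 3375558 to 10211060 limit the precision of genes with few reads. Alternatives were other scaling, filter and pseudocounts, a replicate block, fits of only the groups compared, and each library left out.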

Additional observations from a re-analysis of the deposited data

How the results depend on the processing

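The counts of members called were recomputed under 29 other settings. Beyond those given with the results, the count of 24 at day 11 became 46 with only the groups compared. Ccne2 in spleen (1 member) became 0 with a pseudocount of 5, with only the groups compared and with voom, and Chaf1b in nonTrm (1 member) became 0 with only the groups compared and with voom. The 6 members of wild-type Trm against nonTrm became 3 with further TMM scaling and 3 without the filter, where 34514 genes were tested. The count became 10 with a pseudocount of 5, 0 with only the groups compared and 23 with voom. Shares of all genes at each of these settings are not given, so these counts cannot be set against them. Over all genes, the 43 called in that Trm comparison lay between 0 and 161 under settings other than leaving out a library. The day contrast in VHL-deficient cells went from 0 to 18 with only the groups compared. Leaving out each library in turn gave 12 to 34 members for genotype at day 11, 0 to 1 in day 7 tumor, 0 to 2 in spleen, 4 to 39 in Trm, 0 to 21 in nonTrm, 31 to 48 and 24 to 40 for tumor against spleen in wild-type and VHL-deficient cells, 0 to 26 and 0 to 21 for Trm against nonTrm, and 0 to 9 for the subset interaction; the other contrasts stayed at 0. Of 928 recomputed values of named members none changed sign, 50 lost a call and 12 gained one. In each contrast whose member count moved when a library was left out, the count over all genes moved as well. The ranges are therefore not particular to the members. The causes of these changes were not tested. Many of the 928 values could not change sign. Leaving out a library of another group, dropping the filter or fitting only the groups compared leaves a fold change as it was.

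The replicate numbers are not stated to pair libraries, and between genotypes the deviations of same-numbered libraries correlated at 0.0427, 0.105 and 0.104 at day 11, 0.0291 in day 7 tumor, 0.118 in spleen, 0.236 in Trm and 0.271 in nonTrm. Between tumor and spleen these correlations were -0.0953 in wild-type and -0.0109 in VHL-deficient cells. Between Trm and nonTrm they were -0.148 and -0.181. With the replicate number as a replicate block, 21 members were called at day 11 and 26 in Trm. That fit gave 43 and 36 for tumor against spleen, and 1 rather than 6 for wild-type Trm against nonTrm. The shares of all genes called in the block fit are not given. Counts over all genes moved as well: under settings other than leaving out a library, 984 at day 11 lay between 664 and 2825, 1446 in Trm between 667 and 1957, 273 in day 7 tumor between 116 and 299, 455 in spleen between 80 and 662, 332 in nonTrm between 0 and 399, 2213 for tumor against spleen in VHL-deficient cells between 1927 and 3034, 43 for wild-type Trm against nonTrm between 0 and 161, and 10 for the tissue interaction between 2 and 15; the 3079 for tumor against spleen in wild-type cells lay above the other settings, 1126 to 3040. For the day contrast in VHL-deficient cells the count of 0 reached 71 with only the groups compared. The planned edgeR test was not run.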
